A study of Solanum lycopersicum and Solanum pimpinellifolium with 9 samples.

Results

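The late risers of tomato ripening were 176 genes whose transcript level was at least 4-fold higher in ripe fruit of the cultivar MoneyMaker than in its mature green and breaker fruit. They were chosen by their values in 3 of the 9 libraries of the series, out of 34727 gene IDs. The scale was L = log2(RPKM + 5), where RPKM corrects a gene's reads for its length and for library depth and 5 RPKM is a pseudocount that damps the differences of low genes. L of ripe fruit had to lie at least 2 units above both breaker and mature green, ripe fruit had to reach 25 RPKM, and breaker had to lie less than 2 units from mature green. The rule set no upper limit on the earlier stages. These 3 libraries therefore say nothing further about the genes, and their values are given as a description only.

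MoneyMaker is a cultivar of the cultivated tomato, Solanum lycopersicum, and its 7 libraries came from grown root, upper stem, fully expanded leaf, flower at full anthesis without sepals, green fully expanded fruit (mature green), fruit turning colour (breaker) and red fruit (ripe). The 2 libraries of LA0722, an accession of the wild red-fruited Solanum pimpinellifolium, came from fully expanded leaf and red ripe fruit. No treatment, mutant or transgene is named, and all plants were greenhouse grown with 16 hours of light. The MoneyMaker ripe column is named for a berry with a number and was taken as the ripe sample by elimination, since the remaining columns of this cultivar's fruit carry the words mature and breaker. Each group holds 1 library, so no difference could be set against the spread between plants, and the comparisons carry no test. The values imply totals of 211201 (LA0722 ripe) to 380306 (MoneyMaker leaf) reads per library.

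Tomato fruit ripens under the control of the hormone ethylene, which its own tissue begins to make in large amounts around the breaker stage. From then on chlorophyll is lost, red lycopene accumulates, cell walls are loosened and starch and acids give way to sugars and aroma volatiles. Many ripening genes are already high at breaker. The deposited table gives IDs only, and none of them was found in the reference gene table used here, so the late risers carry no names or roles below, no sequence is shown, and the tissue labels could not be checked against marker genes. In bulk samples, fewer cells of a type and less RNA per cell cannot be told apart. At most 2 IDs are named per direction of a comparison, those with the largest difference.

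In ripe MoneyMaker fruit the late risers ranged from 25.2 to 18961 RPKM, with a median of 63.5 and an upper quartile of 171 RPKM. Most stood near the lower end: 67 of the 176 were below 50 RPKM, 61 reached 100 RPKM and 13 reached 1000 RPKM. They held 6.19% of the summed RPKM of ripe fruit, against 1.02% in mature green and 0.97% in breaker. The 3 most abundant members made up 49.9% of the members' sum, and without them the share in ripe fruit was 3.10%. Among the 3 were genes at 18961 and 13333 RPKM with inferred lengths of only 78 and 99 nt. They had 400 and 357 of the members' 13822 ripe reads, so short genes weigh more in these RPKM shares than in reads. Genes that met the whole rule were 3.03% of the 5808 genes at 25 RPKM or more in ripe fruit. By each step alone, ripe was the higher library in 7.07% of genes at that level in ripe or breaker, and in 8.51% of those at that level in ripe or mature green. The rule sets these figures, and nothing is read from them.

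The difference to the higher of breaker and mature green was 2.72 units at the median and 5.99 at most. Of the 176 genes, 75 were listed at 0 in both earlier stages, 28 in one of them, and 73 were above 0 in both. Mature green reached up to 4213 RPKM and breaker up to 4480 RPKM in a member. Breaker was above mature green in 55 members and below it in 46, by 1 unit or more in 17 and 15 of them. Just inside the threshold lay genes with a difference of 2.02 each, at 438 RPKM in ripe fruit against 104 (breaker) and 38.7 (mature green), and at 73.6, 0 and 14.3 RPKM. Just outside lay genes with a difference that rounds to 2.00 but stayed under the limit, at 80.3 RPKM in ripe fruit against 16.3 (breaker) and 2.02 (mature green), and at 103, 7.63 and 22.0 RPKM.

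The strength of the evidence differed widely between members. The whole reads behind each value were recovered from the steps in the RPKM values, together with an inferred coding length. In ripe fruit the members had a median of 10 reads; 85 had fewer than 10, 55 had 3 or fewer and 21 rested on a single read, while 18 had 100 reads or more. Among all 5808 genes at 25 RPKM or more in ripe fruit the median was 17 reads and 25.9% had fewer than 10, against 48.3% of the late risers. Because 74 members were listed in 4 or fewer libraries, their read numbers and inferred lengths are the smallest possible ones and may be too low by a whole factor. Results below are therefore also given for the 91 members with 10 or more reads in ripe fruit. The intervals given for ratios are exact conditional binomial intervals at 95% and cover counting error only.

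The late risers had shorter inferred coding lengths than ripe fruit genes in general. These lengths are the smallest that fit the values. In genes listed in few libraries they may be too short by a whole factor, so the difference may partly come from the method. The median inferred coding length was 422 nt, against 777 nt over the 5808 genes, and 74 members (42.0%) were under 300 nt, against 11.5%. Of these 74, 56 had fewer than 10 reads. On 100 nt a single read was worth 37.0 RPKM in the ripe library and so reached the level of 25 RPKM by itself. Among members with 10 or more reads that were listed in 5 or more libraries the median length was 713 nt (n = 78), against 918 nt over the 4237 genes of the same kind. The part of read number and length in the choice of the members was not tested.

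Solyc03g083910 showed the largest difference of all late risers. Mature green fruit had 50.3 RPKM, breaker 67.0 and ripe MoneyMaker fruit 4573 RPKM, on 34, 28 and 2408 reads. Outside these it was at 15.2 RPKM in root, 57.9 in stem, 13.5 in leaf, 115 in flower, 102 in LA0722 leaf and 5107 RPKM in LA0722 ripe fruit. Both ripe fruit libraries were thus far above the 7 others, and LA0722 ripe was 1.12-fold MoneyMaker ripe (1.05 to 1.18). The ratio of ripe to breaker was 68.2 (47.1 to 103) and of ripe to mature green 90.8 (64.8 to 131).

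Solyc02g085910 had the second largest difference and was listed in the ripe fruit libraries alone. It stood at 231 RPKM in MoneyMaker ripe fruit on 51 reads and at 139 RPKM in LA0722 ripe fruit on 24 reads, with 0 listed for mature green, breaker, flower, root, stem and both leaf libraries. Against a floor of 3 reads per library it was at least 13.5-fold higher in ripe than in breaker and at least 21.8-fold higher than in mature green. Folds against a floor, here and below, leave out the counting error of the higher value. Another 6 members had the same pattern of being listed in both ripe fruit libraries and in no other, 7 in all. Those 6 were less well counted, with 1 to 26 reads in MoneyMaker ripe fruit and 1 to 11 in LA0722 ripe fruit by the smallest solution. By contrast 26 members were listed in MoneyMaker ripe fruit only, at 25.2 to 91.3 RPKM. Their smallest possible read numbers were no more than 5 each, and the true numbers may be higher by a whole factor.

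**Figure D1:**
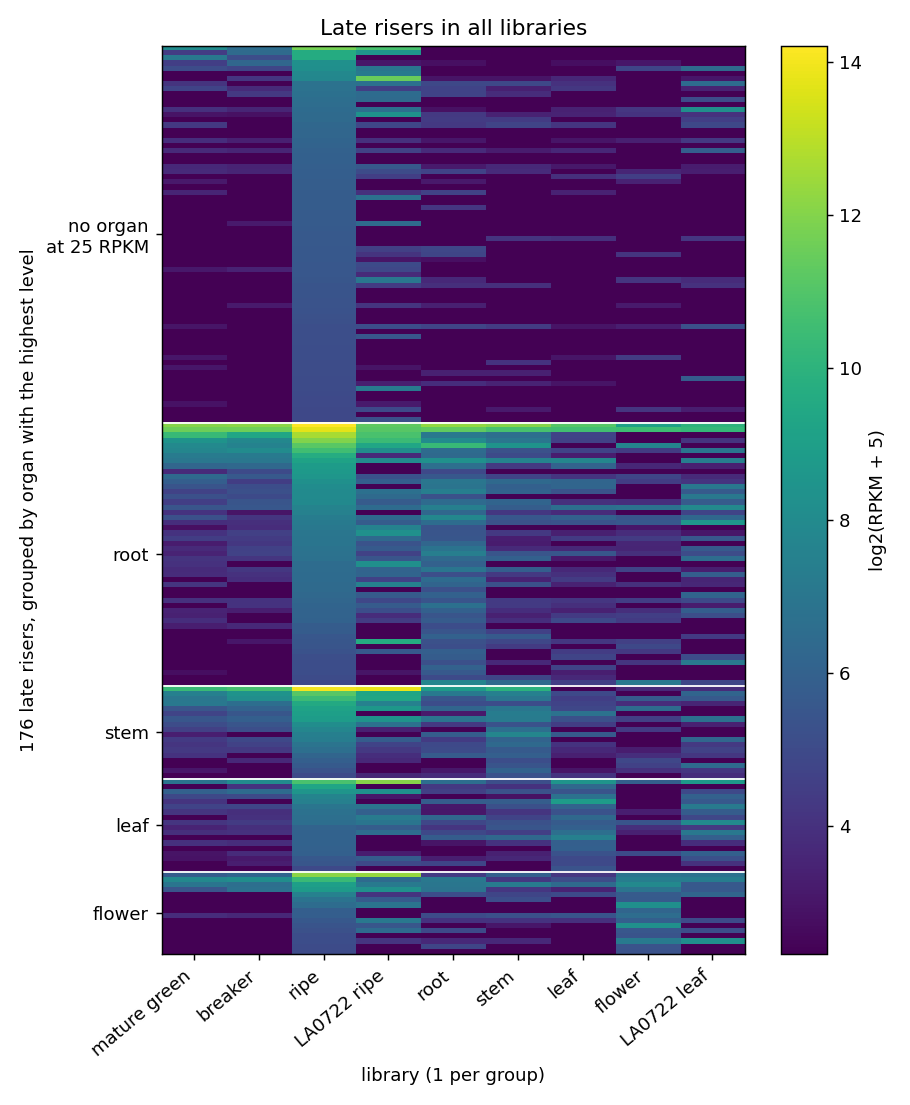
Heat map of log2(RPKM + 5) for the 176 late risers (rows) in the 9 libraries (columns, 1 per group), grouped by the organ of root, stem, leaf and flower in which a member was highest, with 73 members below 25 RPKM in all 4 at the top and then 51, 18, 18 and 16 members; within a group rows are ordered by MoneyMaker ripe level. The ripe column is bright by the choice of the members, and LA0722 ripe is bright for part of them only.

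Outside fruit the late risers were mostly low, and root was the organ where most of them were present. At 25 RPKM or more stood 71 of the 176 in root, 50 in stem, 38 in leaf and 28 in flower, that is 40.3%, 28.4%, 21.6% and 15.9%. Of the 5808 genes at that level in ripe fruit, 70.4% also reached it in root, 68.7% in stem, 51.0% in leaf and 34.8% in flower. The late risers were listed at 0 in root in 61 cases, in stem in 76, in leaf in 84 and in flower in 101. These were 34.7%, 43.2%, 47.7% and 57.4% of them, against 5.99%, 6.59%, 10.4% and 22.7% of the 5808 ripe fruit genes. Root held 51 of the 91 members with 10 or more reads and 20 of the 85 others at 25 RPKM or more. None of the 4 organs reached 25 RPKM in 73 members, 1 organ did in 52, 2 or 3 in 43 and all 4 in only 8. In 42 members all 4 organs were listed at 0. For the counts over several organs no share of the ripe fruit genes is given.

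The number of organs at that level follows the depth and the genes of each library as well as the members, so the members were also compared between organs. None of these organ libraries took part in the rule. By the rule of size, that is 2 units of L with 25 RPKM or more in the higher library, 24 of the 176 were higher in root than in stem and 7 were higher in stem. Of all genes at 25 RPKM in either of those libraries, 12.8% were higher in root and 8.57% in stem. Of the 5808 ripe fruit genes, 4.18% and 3.48% were. The 24 were 13.6% of the late risers, and of the 91 better counted members 15 (16.5%) were higher in root and 4 in stem, where the 4301 ripe fruit genes with 10 or more reads gave 3.51% and 2.91%. The early risers, 485 genes already higher at breaker than at mature green and defined further below, leaned the same way, with 62 (12.8%) higher in root and 12 (2.47%) in stem. Against leaf, 34 members (19.3%) were higher in root and 10 (5.68%) in leaf. That lay closer to the ripe fruit genes, with 16.1% and 5.06%, while genes at 25 RPKM in root or leaf gave 27.8% and 12.1%. The spread between plants is unknown here, so these shares are descriptions.

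**Figure D2:**
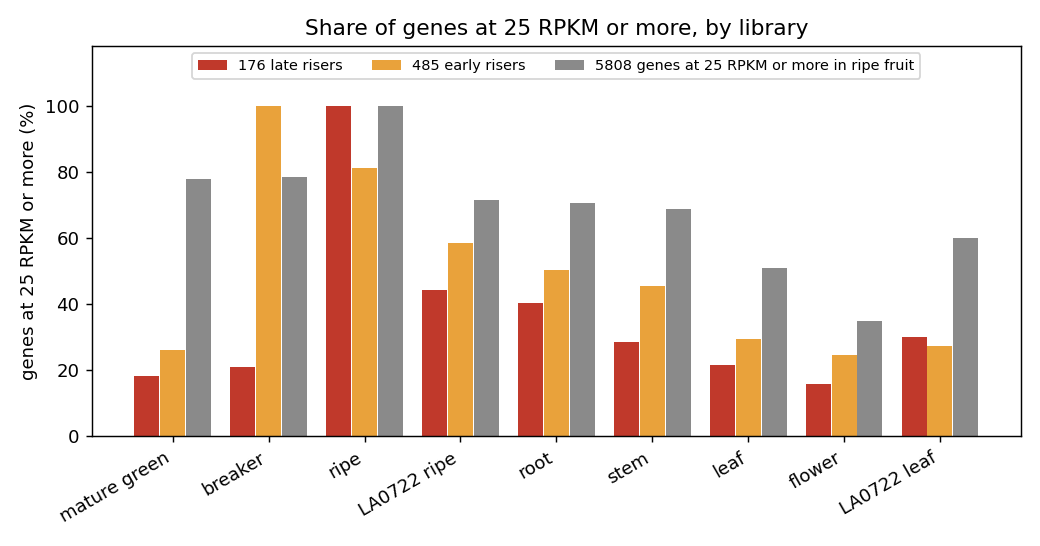
Share of genes at 25 RPKM or more (%) in each library for the 176 late risers, for 485 early risers and for the 5808 genes at 25 RPKM or more in MoneyMaker ripe fruit. The mature green, breaker and ripe bars are set by the choice of the genes; in the other 6 libraries the late risers lie between 15.9% (flower) and 44.3% (LA0722 ripe).

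Ripe MoneyMaker fruit was above all 4 other organs by the rule of size in 74 late risers (42.0%), against 7.66% of the 5808 ripe fruit genes. The ripe library chose the members as high, so this share is a description. Of the 74, 39 had 10 or more reads and 35 had fewer. With median-ratio size factors in place of the deposited scaling it was 46 of 138. The leading ones were Solyc10g050990 and Solyc02g077790, both with 0 listed for flower, root, stem and the leaf of either species. Solyc10g050990 had 261 RPKM at mature green, 88.8 at breaker and 3363 RPKM in ripe fruit on 191 reads, at least 79.6-fold above the root floor. That fold holds for root alone. The flower library implied fewer reads (213742 against 337998 in root), so its floor is higher and the fold above it is smaller. LA0722 ripe fruit held it at 1736 RPKM. Solyc02g077790 stood at 16.9, 81.8 and 800.0 RPKM in the same 3 stages and at 360.0 RPKM in LA0722 ripe fruit, on 1, 3, 37 and 13 reads. Their inferred coding lengths were only 210 and 171 nt. Both were thus listed in fruit libraries alone.

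In 29 members some organ reached or exceeded the ripe fruit level. Several of these had 1 read in that organ and 1 in ripe fruit by the smallest solution, which counting error can reverse. No share of the ripe fruit genes is given for this count. A late riser within fruit was not always highest in fruit, as the gene with 122 flower reads described below shows. Flower was above ripe fruit in 11 members, root in 12, stem in 6 and leaf in 4. By the rule of size 3 members were higher in flower and 1 in root, 3 genes in all, since 1 passed in both organs. Among genes at 25 RPKM in either library, 17.7% were higher in flower and 25.3% in root than in ripe fruit. No late riser passed in stem or leaf, where 22.6% and 18.6% of genes did. These shares include genes below 25 RPKM in ripe fruit, while the rule put every member at that level or above. Of the 5808 ripe fruit genes, leaf was higher in only 1.79%. The low counts among the members are therefore a description.

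Solyc02g038740 stood at 306 RPKM in flower on 122 reads, 8.13-fold above ripe MoneyMaker fruit (4.99 to 14.0). It was at 37.7 RPKM in MoneyMaker ripe and 40.7 in LA0722 ripe fruit, on 19 and 16 reads, and at 3.19 RPKM in stem, with 0 listed for mature green, breaker, root and both leaf libraries. The 2 species' ripe fruit thus held it at a like level, 1.08-fold (0.519 to 2.21). Solyc05g051480 stood at 205 RPKM in root, 82.4 in stem, 18.3 in leaf, 130 in flower and 23.1 in LA0722 leaf, and at 25.7 RPKM in ripe fruit. That ripe fruit value is a single read on an inferred 144 nt, and the gene was listed at 0 in mature green, breaker and LA0722 ripe fruit.

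**Figure D3:**
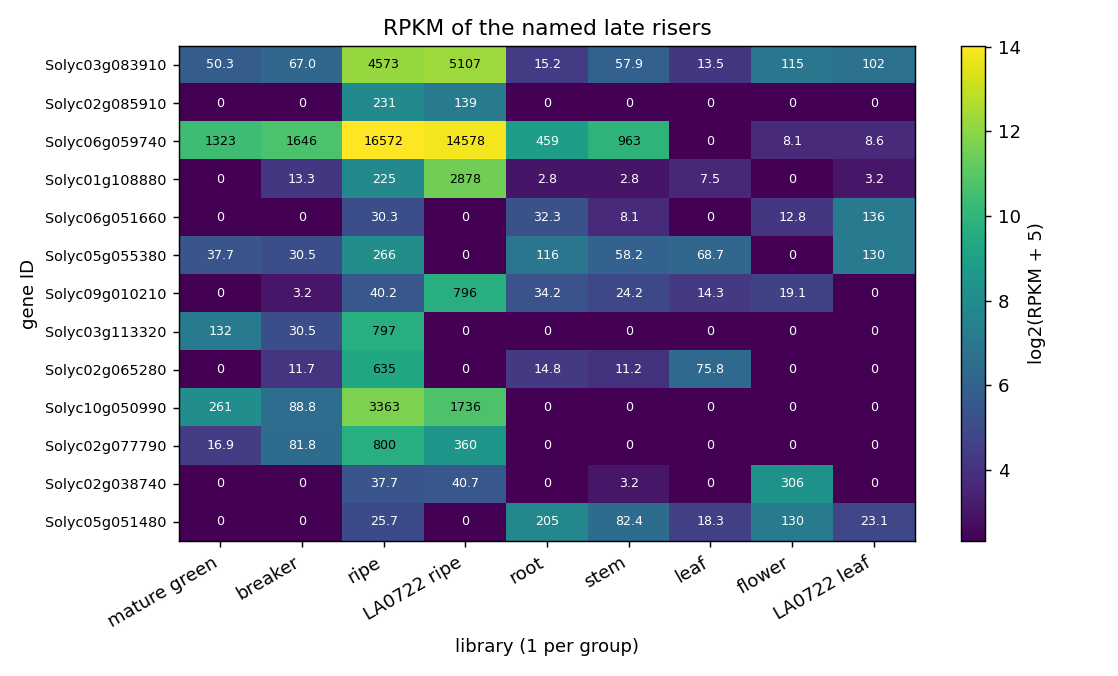
RPKM of the 13 late risers named by ID (rows) in the 9 libraries (columns, 1 per group), with the value printed in each cell and the colour on the log2(RPKM + 5) scale. In the first 3 rows both ripe fruit libraries are the highest, while rows such as Solyc02g065280 and Solyc03g113320 are at 0 in both LA0722 libraries.

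Ripe fruit of LA0722 was the nearest the series holds to another ripe fruit sample, although it comes from another species. The late risers held 3.42% of its summed RPKM, against 0.59% in LA0722 leaf and 0.36% to 1.14% in the 4 MoneyMaker organs. A single member made up 31.0% of the sum in LA0722 ripe fruit, and without it the share was 2.36%. At 25 RPKM or more stood 78 of the 176 (44.3%) in LA0722 ripe fruit and 53 (30.1%) in LA0722 leaf. Of the 5808 MoneyMaker ripe fruit genes 71.6% reached that level in LA0722 ripe fruit. The late risers at that level were 60 of the 91 with 10 or more MoneyMaker reads (65.9%) and 18 of the 85 with fewer (21.2%). They were 31 of the 74 that stood above all other organs (41.9%) and 47 of the 102 that did not (46.1%). No shares of the ripe fruit genes are given for these splits, so they are descriptions.

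The comparison of ripe fruit with leaf within LA0722 used no library of the rule. Of the 176 late risers 41 (23.3%) were higher in LA0722 ripe fruit than in LA0722 leaf by the rule of size, and 12 (6.82%) were lower. A further 40 reached 25 RPKM without passing, and 83 were below that level in both libraries. Over all genes at 25 RPKM in either library 19.3% were higher and 19.4% lower. Over the 5808 ripe fruit genes, 16.7% were higher and 6.99% lower. The late risers were thus somewhat above that background in the higher share and beside it in the lower share. The median difference of all 176 was 0.0 units, because 49 were listed at 0 in both, and the median of the 5808 was 0.25.

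With the better counted members the lean toward ripe fruit was larger. Of the 91 with 10 or more reads 31 (34.1%) were higher in LA0722 ripe fruit than in leaf and 6 were lower, where ripe fruit genes with as many reads gave 16.5% and 6.09%. Of the 18 with 100 reads or more, 10 were higher and 0 lower, where the 387 ripe fruit genes with as many reads gave 34.4% and 3.36%. Genes already higher at breaker are given beside them. These 485 early risers were at least 2 units above mature green in breaker, at 25 RPKM or more there, and within 2 units of breaker in ripe fruit. Of the early risers 203 (41.9%) were higher in LA0722 ripe fruit than in leaf and 39 (8.04%) were lower. Whether the 2 sets differ in this was not tested.

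The same contrast in MoneyMaker used the ripe library that chose the members, and its share is a description. There 140 late risers (79.5%) were higher in ripe fruit than in leaf, against 34.6% of the 5808 ripe fruit genes and 59.6% of the early risers. In both species 37 late risers (21.0%) were higher in ripe fruit than in leaf, against 10.2% of the ripe fruit genes. The choice of the members favours the larger share of the late risers. Among genes higher in MoneyMaker ripe fruit than in leaf, 37 of 140 late risers passed in LA0722 too. Of the ripe fruit genes, 590 of 2008 did. No excess among the late risers is therefore read from the shares. In 5 late risers (2.84%) ripe fruit was higher than leaf in MoneyMaker and lower in LA0722, against 1.27% of the ripe fruit genes. The choice of the members favours this share as well.

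**Figure D4:**
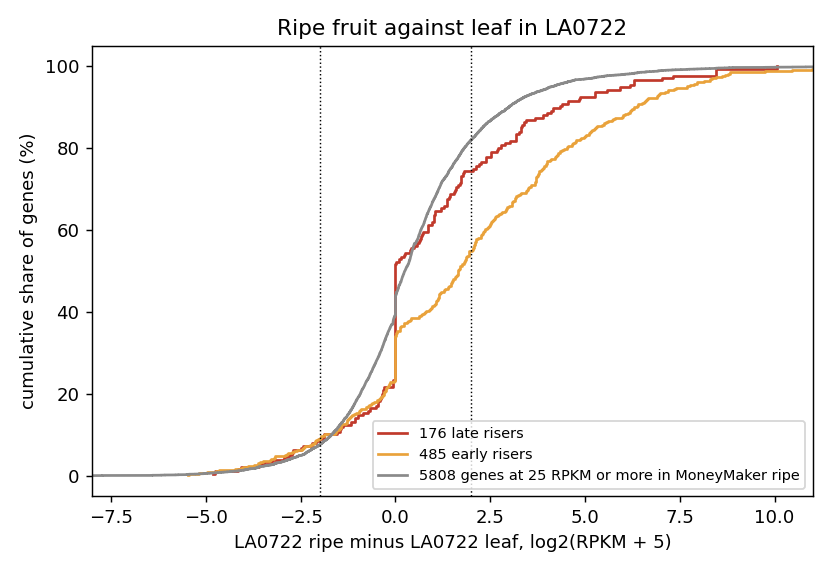
Cumulative share of genes (%) against the difference of LA0722 ripe fruit minus LA0722 leaf in log2(RPKM + 5), for the 176 late risers, 485 early risers and 5808 genes at 25 RPKM or more in MoneyMaker ripe fruit; dotted lines mark 2 units. The step at 0 in the late riser curve holds the 49 members listed at 0 in both libraries, and 41 of the late risers lie beyond the upper line with 25 RPKM or more in ripe fruit.

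Solyc06g059740 and Solyc01g108880 led the late risers that were higher in LA0722 ripe fruit than in leaf. Solyc06g059740 stood at 14578 RPKM in LA0722 ripe fruit on 3556 reads and at 8.63 RPKM in LA0722 leaf on 3 reads, a ratio of 1689 (577 to 8193). In MoneyMaker its stages had 1323 RPKM (mature green), 1646 (breaker) and 16572 (ripe), while root had 459 RPKM, stem 963, flower 8.10 and leaf 0. It was therefore well above 0 in unripe fruit, stem and root too, and its ripe level was 10.1-fold that of breaker (9.10 to 11.2). This is the member that held 31.0% of the late risers' RPKM in LA0722 ripe fruit.

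Solyc01g108880 stood at 2878 RPKM in LA0722 ripe fruit on 640 reads and at 3.16 RPKM in LA0722 leaf on a single read, a ratio of 912 (163 to 36069). In MoneyMaker it was at 225 RPKM in ripe fruit on 64 reads, 13.3 in breaker, 2.81 in root, 2.82 in stem and 7.49 in leaf, and was listed at 0 in mature green and flower. It was thus high in ripe fruit of both species but 12.8-fold higher in the wild one (9.89 to 16.8).

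On the other side, Solyc06g051660 and Solyc05g055380 were the late risers with the largest difference toward LA0722 leaf. Solyc06g051660 stood at 136 RPKM in LA0722 leaf on 15 reads and 0 in the ripe fruit of that species, a level 3.51-fold lower against the floor. Its MoneyMaker values were 32.3 RPKM in root, 8.11 in stem, 12.8 in flower and 30.3 in ripe fruit, and it was listed at 0 in leaf, mature green and breaker. Its ripe fruit value rests on 3 reads. Solyc05g055380 stood at 130 RPKM in LA0722 leaf on 6 reads and 0 in the ripe fruit, 1.40-fold lower against the floor. With the counting error of the 6 reads left out of that fold, a difference is not established for this gene. In MoneyMaker it was at 116 RPKM in root, 58.2 in stem, 68.7 in leaf and 266 in ripe fruit, with 37.7 at mature green, 30.5 at breaker and 0 in flower.

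Between the ripe fruits of both species the late risers leaned toward MoneyMaker, which their choice in the MoneyMaker library favours. In LA0722 ripe fruit 89 of the 176 (50.6%) were lower than in MoneyMaker ripe fruit by the rule of size, 84 were within it and 3 were higher. Over the genes at 25 RPKM in either library 14.1% were lower and 9.09% higher, and over the 5808 ripe fruit genes 17.2% and 1.48%. With median-ratio size factors 58 of 138 were lower. The median difference was -2.07 units, against -0.56 over the 5808. Of the 89 that were lower, 56 had fewer than 10 reads in MoneyMaker ripe fruit and 33 had 10 or more, where 14.5% of the 4301 ripe fruit genes with as many reads were lower. LA0722 ripe fruit listed 64 members at 0 (36.4%, against 8.51% of the 5808), of which 52 had fewer than 10 MoneyMaker reads and 12 had 10 or more. At or above the MoneyMaker level stood 26 of the 176 members, against 1840 of the 5808 ripe fruit genes. Of the 18 members with 100 reads or more, 9 were within the rule of size in LA0722, 9 were lower, and 2 of those were listed at 0. No share of the ripe fruit genes with as many reads is given for these.

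The genes that differed most between the ripe fruits ran both ways. Solyc09g010210 stood at 796 RPKM in LA0722 ripe fruit on 247 reads and at 40.2 in MoneyMaker ripe fruit on 16 reads, a ratio of 19.8 (11.9 to 35.1). It was listed at 0 in LA0722 leaf and in mature green, and was at 3.17 RPKM in breaker, 34.2 in root, 24.2 in stem, 14.3 in leaf and 19.1 in flower. Solyc01g108880, described above, was the other leading gene on the side of LA0722.

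Solyc03g113320 and Solyc02g065280 led the opposite side, and both were listed at 0 in both LA0722 libraries. Solyc03g113320 had 132 RPKM at mature green, 30.5 at breaker and 797 when ripe (33 reads), at least 8.59-fold above the LA0722 ripe floor, and 0 in the 4 other MoneyMaker organs. Its inferred coding length was 153 nt. Solyc02g065280 stood at 635 RPKM in ripe fruit on 137 reads, at least 35.7-fold above the LA0722 ripe floor. In the other MoneyMaker libraries it was at 14.8 RPKM in root, 11.2 in stem, 75.8 in leaf and 11.7 in breaker, and was listed at 0 in flower and mature green. In all, 49 late risers were listed at 0 in both LA0722 libraries, 6 of them with 10 or more MoneyMaker ripe fruit reads. No share of the ripe fruit genes is given for this.

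**Figure D5:**
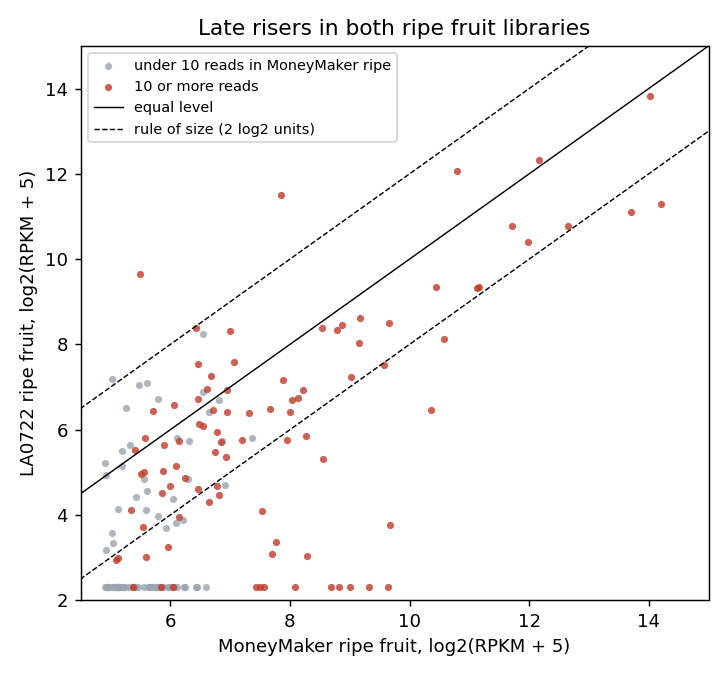
Level of each of the 176 late risers in MoneyMaker ripe fruit (x axis) and LA0722 ripe fruit (y axis), both as log2(RPKM + 5), with grey points for the 85 members of fewer than 10 MoneyMaker ripe reads and red points for the 91 others; the solid line marks equal levels and the dashed lines 2 units. The row of points at the bottom holds the 64 members listed at 0 in LA0722 ripe fruit, and 3 points lie above the upper dashed line by the rule of size.

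The late risers were spread over the genome as their IDs number it. The first digits of a tomato gene ID of this form give the chromosome and the last digits the order along it. Chromosome 1 held 26 members (14.8%, against 13.9% of the 5808 ripe fruit genes), chromosome 2 held 25 (14.2% against 10.2%) and chromosome 6 held 9 (5.11% against 9.13%). The other 9 numbered chromosomes held 9 to 19 members each, and 3 had IDs of unplaced sequence. Another late riser lay within 30 ID numbers of 12 members, in 6 pairs. No such share is given for the ripe fruit genes, so nothing is read from this count.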

How the data were processed

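The series measured cDNA of 9 tomato tissues by pyrosequencing, 1 library per group, per the labels' protocols. The authors deposited RPKM values with 2 decimals for 34727 gene IDs; HTSeq is a tool the submitters' processing notes list. Its version, the aligner, the build, the annotation and any filter were not given in the sources used here. Sample names and column names were matched, with MoneyMaker ripe fruit assigned by elimination. Of the IDs 0 were found in the reference table of 41476 genes, so the planned gene lists and marker lists were not run. The members, lists and comparisons were chosen with earlier results of these data known.

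Totals, whole reads and coding lengths (taken as multiples of 3 nt) were recovered from the steps in the RPKM values, as the smallest solution per gene. All 23089 genes listed above 0 had a solution within 0.05 reads, which the method requires, and the reads summed to 96.1% to 99.9% of the implied totals. The recovery was also run on data simulated from the recovered lengths. That run could not show whether the lengths and reads recovered from the real data are too small. A gene was called higher when log2(RPKM + 5) differed by 2 and the higher library had 25 RPKM or more. A value at 0 was set to a floor of 3 reads per library for folds. Intervals are exact conditional binomial (Clopper-Pearson) and cover counting error only. Floors cover the counting error of the value at 0 alone, so folds against a floor leave out that of the higher value. Named genes are the 2 with the largest difference per direction of a comparison. Alternatives changed the pseudocount, level, size rule, scaling, breaker limit, reads and length. Python 3.11.15, numpy 2.4.6, pandas 2.3.3 and scipy 1.17.1 were used.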

Additional observations from a re-analysis of the deposited data

Results flagged for a closer look

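The contrast of ripe fruit with leaf ran opposite ways in the 2 species in 5 late risers, which were higher in ripe fruit than in leaf in MoneyMaker and lower in ripe fruit than in leaf in LA0722 by the rule of size. The difference between species was not tested, since each group holds 1 library, and the MoneyMaker ripe library chose these genes as high. Of the 5, 4 rested on 3 or fewer reads in MoneyMaker ripe fruit by the smallest solution. They were 2.84% of the 176, against 1.27% of the 5808 genes at 25 RPKM or more in MoneyMaker ripe fruit. That choice favours the larger share of the late risers. Among genes higher in ripe fruit than in leaf in MoneyMaker, the opposite-way genes were 5 of 140 late risers and 74 of 2008 ripe fruit genes. No excess among the late risers is therefore read from the shares.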

How the results depend on the processing

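The main counts were 176 late risers, 41 higher and 12 lower in LA0722 ripe fruit than in LA0722 leaf, 3 higher and 89 lower in LA0722 than in MoneyMaker ripe fruit, and 74 above all 4 other organs. Each alternative redefined the members, and counts are given in that order where they moved by over 1.5 times. A pseudocount of 20 RPKM gave 66 late risers (55 of them among the 176), 23 higher and 3 lower than leaf, 34 lower than MoneyMaker ripe and 38 above other organs; 1 RPKM gave 1 higher than MoneyMaker ripe. A level of 10 RPKM gave 22 lower than leaf and 151 lower than MoneyMaker ripe; 100 RPKM gave 61, 19, 2, 1, 25 and 28. A size rule of 1 unit gave 503, 147, 64, 17, 274 and 235, and of 3 units 69, 19, 4, 1, 38 and 33. Median-ratio size factors gave 58 lower than MoneyMaker ripe and 46 above other organs. Members with 10 or more reads gave 91, 6 lower than leaf, 33 lower than MoneyMaker ripe and 39 above other organs. Members of 300 nt or more gave 102, with 6, 40 and 36. The late risers numbered 134 with equal sums, 138 with median-ratio size factors, 197 with upper-quartile scaling and 144 with breaker within 1 unit of mature green. The breaker limit was run for the number of late risers alone. In every other alternative, more late risers were higher than lower in LA0722 ripe fruit against leaf, and more were lower than higher against MoneyMaker ripe. The scalings shifted ripe against breaker by -0.14 to 0.07 units, ripe against mature green by -0.25 to 0.33, LA0722 ripe against leaf by -0.09 to 0.02 and LA0722 ripe against MoneyMaker ripe by 0.18 to 0.29, toward LA0722 in each scaling. No paired analysis was possible because each group holds 1 library. In the smallest solution 21 late risers rested on a single read, and their true reads may be more by a whole factor. At such read numbers, membership near the level cannot be told from counting error.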
